A study of Rattus norvegicus with 6 samples.

Results

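The 10 genes described here encode the ATP-binding cassette (ABC) pumps that move drugs, bile acids, phospholipid and conjugates out of the liver cell: Abcc1, Abcc2, Abcc3, Abcc4, Abcc6, Abcb1a, Abcb1b, Abcb4, Abcb11 and Abcg2. They were found on the array as 21 probes whose RefSeq accession belongs to one of these rat symbols, 10 of 15284 named genes. The gene set was drawn up with the measured difference between the same treated and control livers in view, so the values of the 10 genes are given as a description and carry no test of their own.

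Livers came from 2 groups of male Sprague-Dawley (Crl:CD(SD)) rats bought at 5 weeks of age. The treated group of 3 animals received bromodichloromethane, a trihalomethane by-product of water chlorination, at 200 mg/kg/day, and the control group of 3 animals received corn oil, the vehicle. The labels give 28 days in one place and 9 weeks of dosing in another, so the length of exposure is not settled. Total RNA of each animal was hybridised to 1 single-colour (Cy3) Agilent array.

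An ABC pump uses ATP to push its substrate across a membrane, and hepatocytes place different pumps on their 2 surfaces. On the canalicular surface, which faces the bile, Abcb11 secretes bile salts, Abcb4 moves phosphatidylcholine, Abcc2 secretes glutathione and glucuronide conjugates, and Abcb1a, Abcb1b and Abcg2 export drugs and other foreign compounds. On the basolateral surface, which faces the blood, Abcc3 and Abcc4 return conjugates and bile acids to the circulation and are known for rising in cholestasis. Abcc1, which exports glutathione conjugates, is scarce in normal hepatocytes, and Abcc6 is a basolateral pump of liver needed for ATP release.

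Signals are given as relative signal, the background-subtracted intensity of a probe divided by the 75th percentile of its array, so that 1 is the level of that percentile. Levels of different probes cannot be set against each other, because probes differ in how strongly they bind. Where a gene had several probes, the one with the highest mean signal stands for the gene. For all 10 genes that probe was well above background on all 6 arrays, so none entered through 1 group alone. The groups did not overlap for 8 of the 10 genes, 5 of them higher and 3 lower in treated livers. Among the 28995 features measured on the array, 34.4% did not overlap, 18.4% being higher and 16.0% lower, and nothing is read from the comparison because the same contrast chose the genes. The median log2 fold change of the 10 genes was 0.45, and that of all features was 0.0014.

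The 75th percentile lay between 670.1 and 825.4 fluorescence units on the 6 arrays, and 61.3% to 66.9% of probes were well above background. Slide 2, with its own scan, held treated replicates 2 and 3, whereas slide 1 held treated replicate 1 together with the corn oil animals. A value within slide 1 therefore compares 1 treated animal with 3 corn oil animals. Scaling by the spiked-in control transcripts in place of the percentile moved the median of all features up by 0.48 on the log2 scale, and 97.6% of the calls it gave were higher in treated livers, against 63.6% with the percentile. The offset of the spiked-in transcripts was -0.29 and -0.30 in treated replicates 2 and 3, 0.09 in treated replicate 1 and 0.12 to 0.21 in corn oil animals. Changes below are relative to the percentile.

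Among the basolateral pumps, Abcc3 had relative signals of 2.48, 2.97 and 2.71 in treated livers, against 0.137, 0.109 and 0.133 in corn oil livers. Each treated animal was far above every corn oil animal, and the animals within a group lay close together. The means were 2.72 ± 0.246 in treated and 0.126 ± 0.0148 in corn oil livers (SD, n = 3 each), a 21.6-fold difference (log2 fold change 4.43). Its other 2 probes gave 25.5-fold and 23.4-fold. The corn oil signal of those probes exceeded background clearly in 2 animals for one probe and in 1 animal for the other. On slide 1 alone the log2 fold change was 4.30. With normexp background correction, which compresses dim signals, it was 3.80, and with spike-in scaling 4.91.

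Abcc4, which also carries bile acids and cyclic nucleotides, had relative signals of 1.03, 1.12 and 0.775 in treated livers, against 0.566, 0.616 and 0.624 in corn oil livers. Treated replicate 3 was the lowest of its group and still above all corn oil animals. The means were 0.976 ± 0.180 and 0.602 ± 0.0316 (SD, n = 3 each), a 1.60-fold difference. The other 3 probes gave 1.44-fold, 1.45-fold and 1.48-fold, and on the dimmest of them treated replicate 1 fell within the corn oil range.

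Abcc1 had relative signals of 0.529, 0.788 and 0.634 in treated livers, against 0.381, 0.321 and 0.361 in corn oil livers. The groups did not overlap, and the means were 0.650 ± 0.131 and 0.354 ± 0.0304 (SD, n = 3 each), a 1.82-fold difference. A further pair of probes gave 1.66-fold and 1.72-fold, and the remaining probe was too dim to be kept, with no array where it cleared background. On slide 1 the log2 fold change was 0.58, against 0.86 over all arrays, since treated replicate 1 had the smallest value of its group.

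Abcc6 went the other way. Its relative signals were 16.3, 15.8 and 16.7 in treated livers, against 28.4, 26.5 and 27.0 in corn oil livers. The SD on the log2 scale was 0.04 in treated and 0.05 in corn oil livers, the smallest spread of the 10 genes, and the log2 fold change was -0.74. Slide 1 gave the same -0.74, and spike-in scaling gave -0.26.

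**Figure D1:**
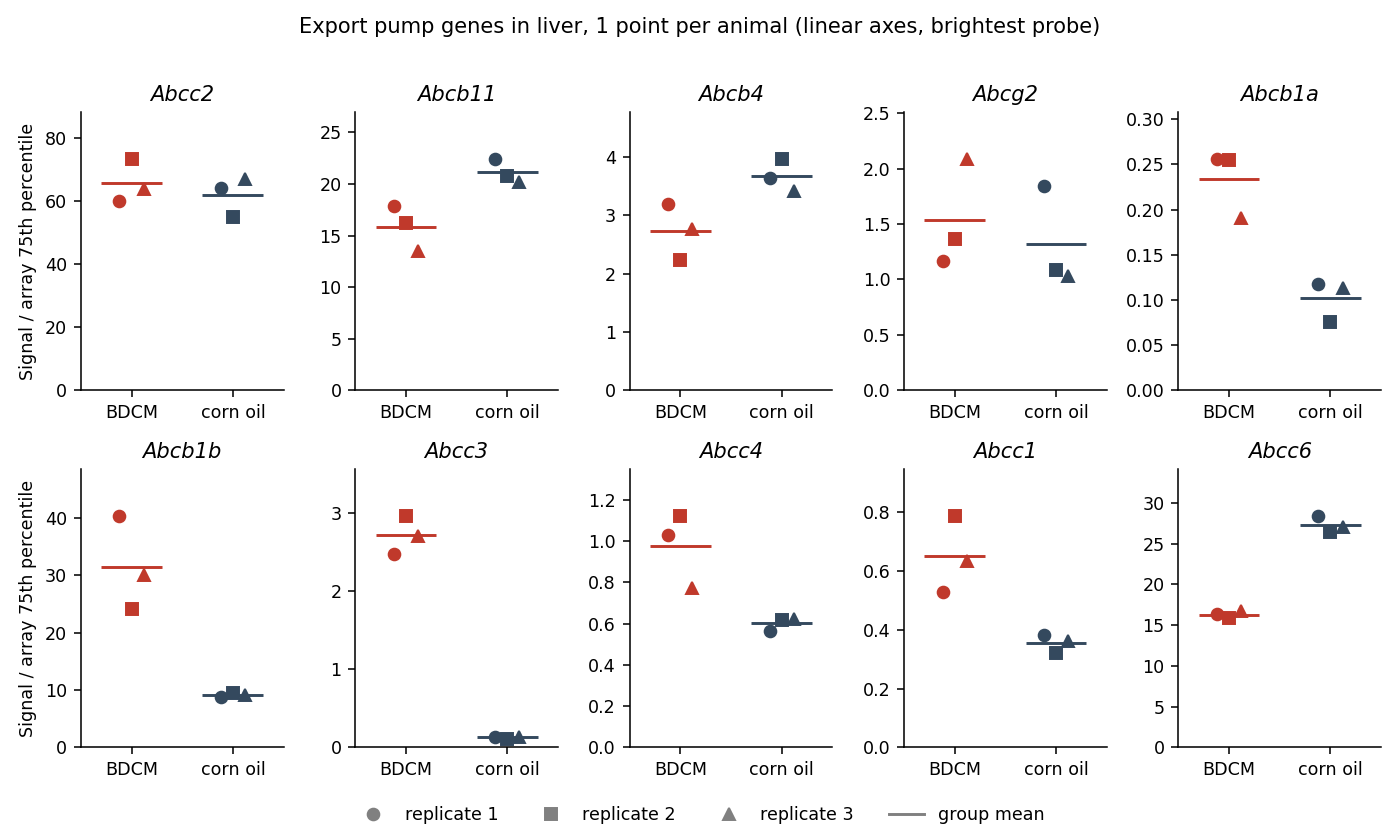
Relative signal (signal divided by the 75th percentile of the array, linear axes that start at 0) of the 10 pump genes, with treated (BDCM, bromodichloromethane) animals left of corn oil animals, 1 symbol per replicate and a line at each group mean. Abcc3 lies between 2.48 and 2.97 in treated livers and between 0.109 and 0.137 in corn oil livers, while the groups overlap for Abcc2 and Abcg2. Abcb11 and Abcb4 are lower in treated livers on this scale, with log2 fold changes of 0.06 and 0.04 with spike-in scaling.

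Among the canalicular pumps, the drug pump gene Abcb1b was the one whose probes disagreed most. Its brightest probe had relative signals of 40.4, 24.1 and 30.1 in treated livers, against 8.73, 9.49 and 9.10 in corn oil livers, a 3.38-fold difference (log2 fold change 1.76). The second probe had 40.5, 23.7 and 30.2 in treated livers, against 0.770, 1.07 and 1.37 in corn oil livers, a 29.5-fold difference (log2 fold change 4.88). The third probe had 2.23, 1.56 and 1.96 in treated livers, against 0.130, 0.146 and 0.176 in corn oil livers, a 12.7-fold difference (log2 fold change 3.67).

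All of these probes were well above background on all 6 arrays, carry the same accession and separate the groups. Their log2 fold changes span 3.12. Treated replicate 1 was the highest and treated replicate 2 the lowest of the treated animals on each probe. Among corn oil animals the brightest probe had an SD of 0.06 on the log2 scale. The direction for Abcb1b was shared by its probes, but its size is not settled, and the mean over the probes gave a log2 fold change of 3.44. On slide 1 the brightest probe stood at 2.15. Abcb1b and Abcb1a are close paralogues, and how far a probe of one binds the transcript of the other was not tested.

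Abcb1a, the paralogue, had relative signals of 0.256, 0.255 and 0.190 in treated livers, against 0.117, 0.0754 and 0.113 in corn oil livers. All treated animals were above all corn oil animals. The means were 0.234 ± 0.0376 and 0.102 ± 0.0231 (SD, n = 3 each), a 2.32-fold difference measured by 1 probe. The log2 fold change was 1.21, or 1.36 on slide 1, and 0.75 with normexp.

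Abcb11, the bile salt export pump, had relative signals of 17.9, 16.2 and 13.5 in treated livers, against 22.4, 20.8 and 20.2 in corn oil livers. On this scale the groups did not overlap and the log2 fold change was -0.42, but it was 0.06 with spike-in scaling. Abcb4, the phospholipid pump, had relative signals of 3.20, 2.23 and 2.76 in treated livers, against 3.64, 3.97 and 3.42 in corn oil livers. Its log2 fold change was -0.44, and 0.04 with spike-in scaling. Treated replicate 1 was the closest treated animal to the controls for both genes, and on slide 1 the values were -0.24 for Abcb11 and -0.20 for Abcb4. Whether either gene was lower therefore depends on the scaling.

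Abcc2, the conjugate pump of the canaliculus, had relative signals of 59.9, 73.4 and 63.7 in treated livers, against 64.0, 54.9 and 67.1 in corn oil livers. The groups overlapped, and the log2 fold change of 0.08 was smaller than the SD of either group, 0.15 on the log2 scale in both. Abcg2, the breast cancer resistance protein, had relative signals of 1.16, 1.37 and 2.09 in treated livers, against 1.85, 1.08 and 1.03 in corn oil livers. One animal stood above the others in each group, treated replicate 3 and corn oil replicate 1, and a second probe showed the same pattern. Its log2 fold change of 0.23 lay within the SD of 0.44 in treated and 0.47 in corn oil livers. Both genes had a negative log2 fold change on slide 1, -0.04 for Abcc2 and -0.13 for Abcg2.

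**Figure D2:**
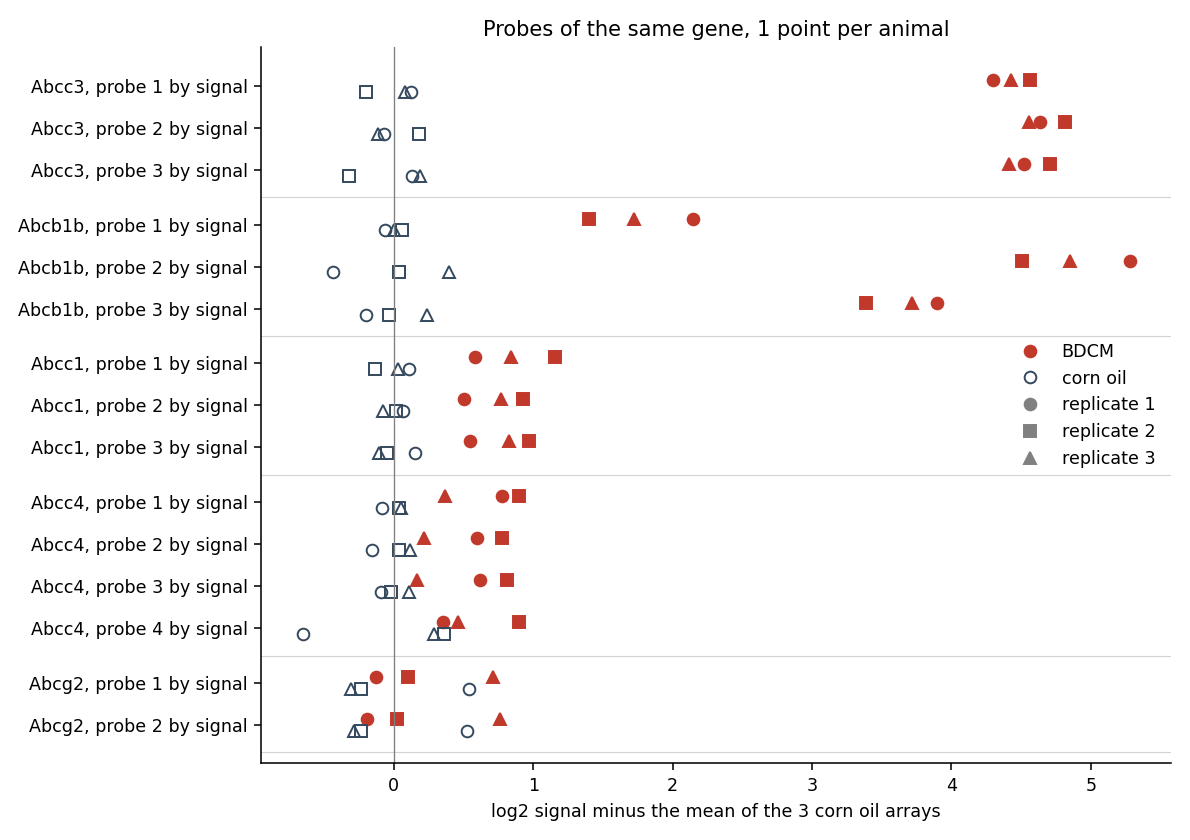
Log2 signal of each kept probe minus its mean over the 3 corn oil arrays, for the 5 genes with several probes, with filled red symbols for treated (BDCM) animals above open symbols for corn oil animals, and 1 symbol shape per replicate. The probes of Abcc3 lie together between log2 fold changes of 4.43 and 4.67, while those of Abcb1b run from 1.76 to 4.88.

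Abcb4, Abcb1b and Abcb1a stand side by side on rat chromosome 4 in RefSeq's GRCr8 assembly, in that order, and are read from the same strand. They did not move as a block, with log2 fold changes of -0.44 (0.04 with spike-in scaling), 1.76 and 1.21. Of the 5 protein-coding genes on each side, Grm3, Dmtf1, Tmem243 and Crot on the Abcb4 side and Rundc3b, Dbf4 and Sri on the Abcb1a side were measured. None of these neighbours passed an adjusted p of 0.05 in limma, a linear model fitted to all 28995 features with Benjamini-Hochberg adjustment, in which 9.36% of features passed, while 6 of the 7 had an unadjusted p under 0.05, 3 higher and 3 lower. Of all features 27.5% had an unadjusted p under 0.05, 15.4% higher and 12.2% lower. Crot, the carnitine octanoyltransferase next to Abcb4, stood at -0.79 (SE 0.24, adjusted p = 0.10). Rundc3b, next to Abcb1a, stood at -0.98 (SE 0.26, adjusted p = 0.067), and its signal in each treated animal lay below that of every corn oil animal. Grm3, a glutamate receptor, had an adjusted p of 0.052 at -0.35 (SE 0.08).

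**Figure D3:**
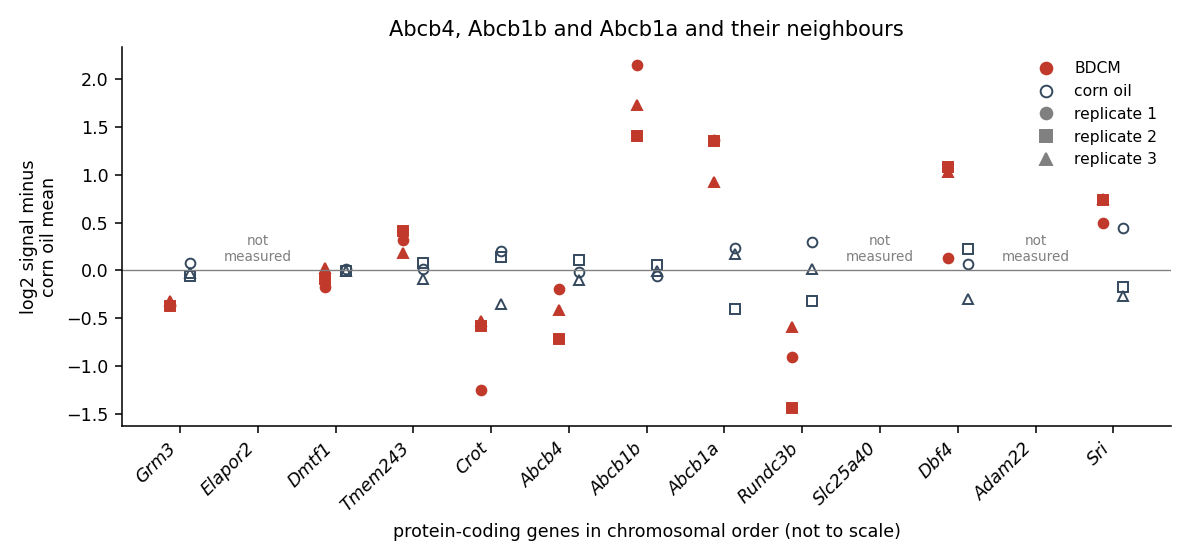
Log2 signal minus the mean of the 3 corn oil arrays for the protein-coding genes around Abcb4, Abcb1b and Abcb1a in chromosomal order, not to scale, with treated (BDCM) animals as filled red symbols left of corn oil animals as open symbols. Abcb1b and Abcb1a lie above 0 in all treated animals, while Rundc3b lies below 0 in all of them; Abcb4 also lies below 0 on this scale, with a mean of 0.04 with spike-in scaling.

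The 250 bases before the annotated start are shown for the genes whose groups did not overlap and kept their direction in each alternative scaling, so that the paralogue pair and the pumps of the 2 surfaces can be compared. They come from RefSeq, build GRCr8, which held such an entry for 8 of the 10 genes, all but Abcc3 and Abcb11. Capitals mark matches, on either strand, to the motif letters listed after the sequences.
Abcb1b, GRCr8 chr4:26280030-26280279, minus strand: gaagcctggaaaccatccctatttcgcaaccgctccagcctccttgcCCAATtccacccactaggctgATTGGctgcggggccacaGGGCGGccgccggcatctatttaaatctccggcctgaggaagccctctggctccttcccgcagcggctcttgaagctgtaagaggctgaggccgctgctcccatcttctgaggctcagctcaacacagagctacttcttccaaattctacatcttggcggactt
Abcb1a, GRCr8 chr4:26397649-26397898, minus strand: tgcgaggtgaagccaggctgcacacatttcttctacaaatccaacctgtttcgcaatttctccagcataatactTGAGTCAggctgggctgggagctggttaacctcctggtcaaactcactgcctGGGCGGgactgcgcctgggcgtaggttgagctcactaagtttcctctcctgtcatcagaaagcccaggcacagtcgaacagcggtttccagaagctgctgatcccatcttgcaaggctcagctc
Abcc4, GRCr8 chr15:102181365-102181614, minus strand: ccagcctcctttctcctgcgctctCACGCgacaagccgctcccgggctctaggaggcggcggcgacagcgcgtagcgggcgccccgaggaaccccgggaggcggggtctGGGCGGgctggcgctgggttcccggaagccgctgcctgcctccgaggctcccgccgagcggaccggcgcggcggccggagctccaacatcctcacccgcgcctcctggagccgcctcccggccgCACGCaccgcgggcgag
Abcc1, GRCr8 chr10:1162368-1162617, minus strand: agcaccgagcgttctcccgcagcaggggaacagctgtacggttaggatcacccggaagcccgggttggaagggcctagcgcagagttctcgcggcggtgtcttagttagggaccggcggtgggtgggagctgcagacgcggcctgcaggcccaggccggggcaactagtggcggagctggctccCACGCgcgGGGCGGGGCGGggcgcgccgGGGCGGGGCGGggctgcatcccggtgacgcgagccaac
Abcc6, GRCr8 chr1:105637896-105638145, minus strand: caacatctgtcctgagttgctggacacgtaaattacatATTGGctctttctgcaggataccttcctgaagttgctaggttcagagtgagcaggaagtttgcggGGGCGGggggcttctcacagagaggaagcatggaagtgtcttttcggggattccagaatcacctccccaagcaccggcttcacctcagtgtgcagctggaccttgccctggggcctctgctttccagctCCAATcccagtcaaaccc

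The motifs searched were the antioxidant response element core TGACNNNGC, the xenobiotic response element core GCGTG, the nuclear receptor half-sites AGGTCA and AGTTCA, the CCAAT box CCAAT, the GC box GGGCGG, the cyclic AMP response element TGACGTCA and the AP-1 site TGANTCA. Matches to different motifs could overlap. The GC box was found in 8 of 8 pump promoters and in 30.5% of 33469 rat promoters of the same length. The GC content of the 8 windows ran from 45.2% (Abcc2) to 77.6% (Abcc4). It was not compared with that of all promoters, so nothing is read from the share with a GC box. CCAAT was found before Abcb1b and Abcc6, on both strands of each, and before Abcc2, against 34.0% of all promoters. The AP-1 letters were found before Abcb1a alone among the 8, against 6.34% of all. GCGTG was found before Abcb4, Abcc1 and Abcc4, against 25.9% of all. AGGTCA and AGTTCA were found only before Abcc2 among the 8, against 14.1% and 12.2% of all, and TGACGTCA only before Abcg2, against 1.59%. The antioxidant core was in none of the 8 windows and in 10.1% of all. A match is a description of the letters and not a binding site, and the windows of Abcb1a and Abcb1b were identical at 54.3% of aligned positions, within the 44.0% to 58.4% spanned by the other pairs of the 8 windows.

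Of the other ABC transporter genes on the array, 3 passed the test with percentile scaling and 15 with spike-in scaling. Of 32 such genes 27 were measured, of which 1 rose, 2 fell and 24 did not pass, or 3.70% higher and 7.41% lower against 5.96% and 3.41% of all features. Their median log2 fold change was -0.0054. With spike-in scaling 14 were higher and 1 lower, and the median was 0.48, equal to the shift of all features. Abcg8, which pairs with Abcg5 to export sterols into bile, averaged a relative signal of 0.0580 in treated and 0.193 in corn oil livers. It fell by 1.71 (log2, limma SE 0.34, adjusted p = 0.034), or by 1.06 with normexp. Abcg5, its partner, missed the threshold at -1.01 (SE 0.30, adjusted p = 0.089). Abcc9, the sulfonylurea receptor subunit of a potassium channel, fell by 1.00 (SE 0.17, adjusted p = 0.0255), but stood at -0.52 with its call ended under spike-in scaling (adjusted p = 0.0786). Abcg3l3, an Abcg3-like gene, rose by 1.81 (SE 0.38, adjusted p = 0.038), but only 2 corn oil animals had it well above background, and it stood at 0.83 with normexp. Abca1, the cholesterol exporter of the blood-facing surface, stood at -0.13 (SE 0.27, adjusted p = 0.80). In fits that left out 1 animal, 0 of these genes passed without each of treated replicates 1, 2 and 3, and 2, 1 and 0 passed without corn oil replicates 1, 2 and 3. With slide as a block 0 passed in limma, with 8 at an unadjusted p under 0.05, as many as the 8 without the block.

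**Figure D4:**
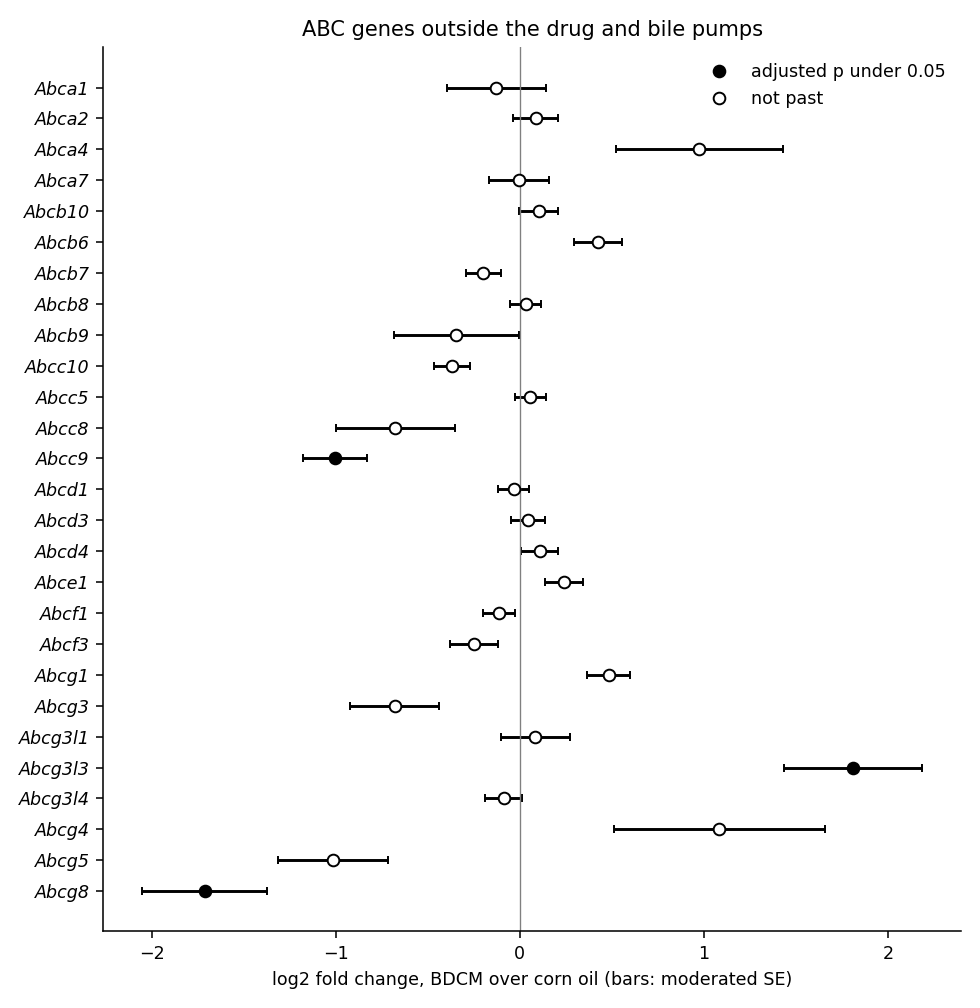
Log2 fold change of the 27 measured ABC transporter genes outside the drug and bile pumps, treated (BDCM) over corn oil, with bars of 1 moderated SE and filled points for adjusted p under 0.05. Abcg3l3 passed on the higher side and Abcg8 and Abcc9 on the lower side, and with spike-in scaling 14 of the 27 passed on the higher side and 1 on the lower.

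The uptake and exchange genes had calls on the lower side with percentile scaling, a balance that turned with spike-in scaling. Most of those measured are carriers that load the hepatocyte with the substrates of the pumps. Slc4a2, Atp8b1 and Tmem30a, which are in the counts, are not. Of 14 uptake and exchange genes 11 were measured, with 0 higher, 4 lower and 7 not past in limma (0 higher and 6 lower at an unadjusted p under 0.05), and a median of -0.38, the same -0.38 on slide 1. Of all features 5.96% passed on the higher side and 3.41% on the lower, or 15.4% and 12.2% at an unadjusted p under 0.05 in limma. With spike-in scaling 2 of the 11 were higher and 1 lower, and the median was 0.10. Slc22a8, an organic anion transporter, averaged 47.1 in treated and 105 in corn oil livers and fell by 1.17 (SE 0.14, adjusted p = 0.0115), and it passed in 6 of 6 fits that left out 1 animal. Slc10a1, the sodium-dependent bile acid uptake carrier, fell by 0.44 (SE 0.09, adjusted p = 0.036), but stood at 0.04 with spike-in scaling. Slco2b1 and Slc22a7 fell by 0.45 and 0.39 (both SE 0.08, adjusted p = 0.026 and 0.035), and likewise stood at 0.03 and 0.10 with that scaling. Slco1b2, a bile acid and organic anion importer, stood at -0.38 (SE 0.12, adjusted p = 0.096), and at 0.10 with spike-in scaling. Slc51a, a subunit of the basolateral bile acid exchanger, did not pass the filter on dim probes, and its partner Slc51b was not matched to a probe. Leaving out any 1 of the 6 animals left 1 of the 4 calls, and slide as a block left 1.

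Enzymes that make the conjugates carried by Abcc2, Abcc3 and Abcc4 changed in both directions. Of 33 measured genes 8 rose, 3 fell and 22 did not pass, with a median of 0.17 and 0.0088 on slide 1. That was 24.2% higher and 9.09% lower, against 5.96% and 3.41% of all features, and with spike-in scaling 18 were higher and 1 lower. The list was drawn up with earlier results of these data known, so nothing is read from its share of calls. Gstp1, the pi-class glutathione transferase, rose by 2.80 (SE 0.47, adjusted p = 0.024). Treated replicate 1, the 1 treated animal on slide 1, had a relative signal of 189.9, against 66.7 and 51.2 in treated replicates 2 and 3. The change was 3.93 on slide 1, and 2.23 at the lowest when 1 animal was left out. Sult2a6, a bile acid and steroid sulfotransferase, rose by 2.97 (SE 0.64, adjusted p = 0.041). Of the glucuronosyltransferases, Ugt2b1 rose by 1.18 (SE 0.20, adjusted p = 0.024) and Ugt2b7 by 2.52 (SE 0.58, adjusted p = 0.048). Only 2 corn oil animals had Ugt2b7 well above background, so it passed the filter through the treated group alone. It stood at 1.28 with normexp and 1.87 without corn oil replicate 1. Ugt1a1, the bilirubin enzyme, stood at -0.33 (SE 0.16, adjusted p = 0.24) and at 0.16 with spike-in scaling. Sult1c3 fell by 1.18 (SE 0.13, adjusted p = 0.0096). Sult2b1 rose by 1.10 (SE 0.21, adjusted p = 0.033) but was well above background in 1 corn oil animal, and stood at 0.30 with its call ended under normexp (adjusted p = 0.057). The list had 4, 1 and 4 calls without treated replicates 1, 2 and 3 and 5, 2 and 7 without corn oil replicates 1, 2 and 3, and 2 with slide as a block.

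Targets of the sensors known to govern pump genes are given by sensor, and the difference between sensors was not tested. Of 13 measured NRF2 targets, genes induced by electrophiles, 8 rose, 0 fell and 5 did not pass (10 higher and 0 lower at an unadjusted p under 0.05), with a median of 0.76 and 0.85 on slide 1. With spike-in scaling 11 of the 13 were higher and 0 lower. Of all features 5.96% passed in limma on the higher side and 3.41% on the lower, or 15.4% and 12.2% at an unadjusted p under 0.05. The list was chosen with earlier results of these data known, so nothing is read from these counts. Akr1b8 rose by 4.31 (SE 0.64, adjusted p = 0.018), Gpx2 by 3.82 (SE 0.67, adjusted p = 0.026), Akr7a3 by 2.34 (SE 0.38, adjusted p = 0.0215) and Ephx1 by 1.13 (SE 0.21, adjusted p = 0.029). Akr1b8 was highest in treated replicate 2 and stood at 3.52 without that animal, and Gpx2 was lowest in corn oil replicate 3 and stood at 3.19 without it. Nqo1, the quinone reductase, rose by 0.71 (SE 0.15, adjusted p = 0.038).

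Of 8 measured CAR and PXR targets 0 rose, 2 fell and 6 did not pass (0 higher and 3 lower at an unadjusted p under 0.05), with a median of -0.18. With spike-in scaling 4 were higher and 1 lower, and the median was 0.30. Cyp3a2 fell by 1.74 (SE 0.31, adjusted p = 0.026). Cyp2b1 fell by 0.44 (SE 0.10, adjusted p = 0.044) but stood at 0.04 with spike-in scaling, and Cyp3a23-3a1 stood at 0.05 (SE 0.10, adjusted p = 0.79), or 0.54 with a call on the higher side under spike-in scaling (adjusted p = 0.0201). Cyp1a2, the 1 measured AHR target, fell by 1.31 (SE 0.21, adjusted p = 0.021). Of 3 measured FXR targets 1 fell, Fgfr4, a receptor for gut-derived fibroblast growth factor, by 0.72 (SE 0.14, adjusted p = 0.035; named after its value was seen). Cyp7a1, the rate-limiting enzyme of bile acid synthesis, stood at -0.21 (SE 0.73, adjusted p = 0.88), with 1.51 on slide 1, -1.07 without treated replicate 1 and 0.27 with spike-in scaling. No FXR target passed with that scaling in limma, and 0 had an unadjusted p under 0.05. The 3 genes need not respond to FXR in the same direction, so the activity of FXR is not read from them. The 12 calls among 25 sensor targets were 32.0% higher and 16.0% lower, against 5.96% and 3.41% of all features. Nothing is read from that comparison, because the list was chosen with earlier results of these data known. The 12 calls became 5, 2 and 6 without treated replicates 1, 2 and 3 and 5, 2 and 5 without corn oil replicates 1, 2 and 3, and 1 with slide as a block.

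The transcripts of the sensors themselves and of the scaffold proteins that anchor pumps in the membrane gave 2 calls among 21 measured genes, 1 higher and 1 lower, or 4.76% each against 5.96% higher and 3.41% lower of all features. With spike-in scaling 6 were higher and 0 lower (7 higher and 0 lower at an unadjusted p under 0.05). Ezr, the ezrin gene, rose by 0.76 (SE 0.15, adjusted p = 0.0355). Rxra, the partner of several nuclear receptors, fell by 0.51 (SE 0.10, adjusted p = 0.0325), and stood at -0.03 with spike-in scaling. Nfe2l2, which encodes NRF2, stood at 0.20 (SE 0.17, adjusted p = 0.49), Nr1i2 (PXR) at -0.35 (SE 0.09, adjusted p = 0.060), Nr1i3 (CAR) at -0.52 (SE 0.17, adjusted p = 0.10) and Nr1h4 (FXR) at -0.06 (SE 0.21, adjusted p = 0.89). With spike-in scaling Nfe2l2 stood at 0.68 and passed (adjusted p = 0.0368), while Nr1i2, Nr1i3 and Nr1h4 stood at 0.13, -0.04 and 0.42. Rdx, encoding radixin, the main anchor of Abcc2, stood at 0.01 (SE 0.09, adjusted p = 0.96), or 0.49 with a call on the higher side under spike-in scaling (adjusted p = 0.0309). The calls became 1, 0 and 1 without treated replicates 1, 2 and 3 and 1, 0 and 0 without corn oil replicates 1, 2 and 3, and 0 with slide as a block (limma), where 4 had an unadjusted p under 0.05.

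**Figure D5:**
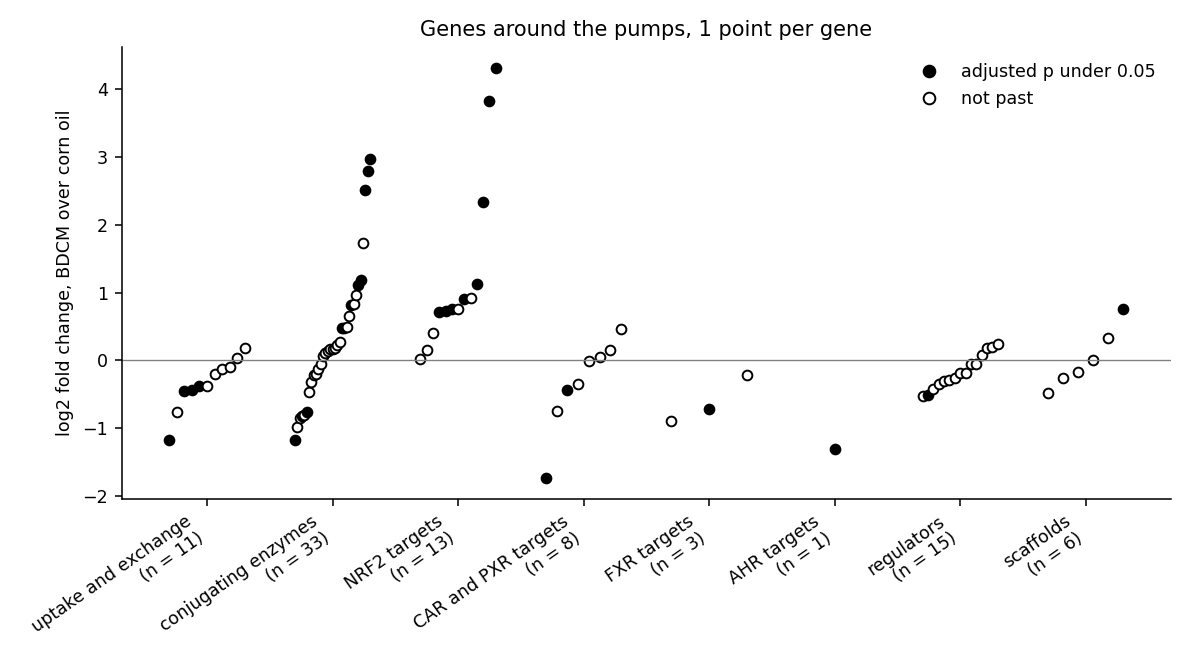
Log2 fold change of the measured genes around the pumps, treated (BDCM) over corn oil, 1 point per gene, grouped by role and filled where the adjusted p was under 0.05. In the NRF2 group 8 of 13 genes passed on the higher side and none on the lower, and in the uptake and exchange group 4 of 11 passed on the lower side. Of all features 5.96% passed on the higher side and 3.41% on the lower, and nothing is read from the comparison. In the uptake and exchange group Slc10a1, Slco2b1 and Slc22a7 lie just above 0 with spike-in scaling, which gave 2 higher and 1 lower in that group.

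In whole liver, fewer cells of a type and less RNA per cell cannot be told apart, so markers of the cell types present were measured beside the pumps. Of 48 measured markers 6.25% passed on the higher side and 8.33% on the lower, against 5.96% and 3.41% of all features, and with spike-in scaling 16 were higher and 1 lower. At an unadjusted p under 0.05 in limma, 9 of the 48 were higher and 9 lower, against 15.4% and 12.2% of all features. Of 8 hepatocyte markers 4 were lower and 0 higher at an unadjusted p under 0.05, and 2 fell in limma after adjustment, Serpina1 by 0.50 and Cps1 by 0.62 (-0.02 and -0.13 with spike-in scaling), and the summed relative signals were 3560 to 4018 in treated and 4146 to 4615 in corn oil livers. Markers of T, B and NK cells had 5 of 7 higher at an unadjusted p under 0.05 and 2 of 7 after adjustment, with sums of 3.79 to 4.57 in treated and 2.75 to 3.37 in corn oil livers. The 2 were Cd3e and Cd2, neither well above background in any corn oil animal, at least 1.33-fold and at least 1.47-fold higher (adjusted p = 0.026 and 0.038 in limma). Both passed the filter on dim probes through the treated group alone, so nothing is read from their calls. Bile duct markers had 1 of 6 higher, also at an unadjusted p under 0.05, Epcam at 1.12 (SE 0.18, adjusted p = 0.021), with sums of 3.57 to 4.91 in treated and 2.49 to 3.75 in corn oil livers. Of 8 macrophage markers none passed in limma, and 1 had an unadjusted p under 0.05 (116.4 to 155.5 in treated and 126.7 to 169.3 in corn oil livers). Of 5 endothelial markers 2 were lower at an unadjusted p under 0.05, and Lyve1 fell by 0.56 (-0.07 with spike-in scaling), with sums of 37.6 to 40.2 in treated and 44.9 to 47.8 in corn oil livers. Of 4 neutrophil and mast cell markers the mast cell gene Cpa3 fell by 1.29, and the neutrophil genes S100a8 and S100a9 stood at 0.50 and 0.43 without passing (adjusted p = 0.169 and 0.171), with sums of 1.57 to 2.17 in treated and 1.29 to 1.57 in corn oil livers. None of 7 stellate and fibroblast markers passed, and 0 had an unadjusted p under 0.05 (20.1 to 21.0 in treated and 19.6 to 25.1 in corn oil livers), and none of 3 red cell markers passed, with 2 at an unadjusted p under 0.05 (121.4 to 185.8 in treated and 187.1 to 291.1 in corn oil livers). No measured marker was listed at 0. Each sum of relative signals follows the brightest probes of its set, such as Hbb among the red cell markers. Hbb averaged 156.7 in treated and 250.2 in corn oil livers. A sum is therefore no measure of its set as a whole. The part of these cell types in the pump values was not tested.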

How the data were processed

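Liver RNA of 6 rats was measured on 1-colour Agilent arrays. The members and gene lists were chosen with earlier results of these data known, so their shares of calls beside those of all features are a description. The deposited scanner files hold fluorescence intensity per spot and, per the submitters' processing notes, came from version 10.7 of Agilent Feature Extraction; the processed intensity is background-subtracted and not scaled between arrays, per the file headers, which name build rn4. The authors' deposited value table holds a linear ratio that from the values is the processed signal over the 75th percentile, and served as an alternative. The deposited flags mark spots well above background or as outliers.

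Processed intensities were taken to log2 and each array's 75th percentile over 61657 non-control probes was subtracted. The 27 probes that any array marks as an outlier were removed. Unversioned accessions were matched to RefSeq symbols of GRCr8, a later build used for names, gene order and promoters: 27460 probes matched 1 symbol, 0 several and 34197 none. A probe was kept where every array of 1 group or of both had it well above background, and the brightest stood for its gene, leaving 28995 features. Treated and corn oil arrays were tested in limma 3.58.1 under R 4.3.3 (lmFit and eBayes, two-sided, Benjamini-Hochberg, threshold 0.05); SE is the moderated standard error, and an adjusted p is from this model unless an alternative is named beside it. The model was also run on simulated data with independent errors and no slide effect, which cannot speak for the slide layout of these arrays. "Rose" and "fell" are used of genes past the threshold, with changes on the log2 scale.

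The pumps were named with every probe, and in each list up to 6 genes (12 for other ABC genes) past the threshold by size, and a few genes fixed by role. For Abcc3, the pump with the largest change by its brightest probe, the 5 named genes nearest to it by root-mean-square difference over the 6 arrays were taken. The second probe of Abcb1b had a larger log2 fold change, 4.88. Neighbours on the chromosome were chosen by position, and cell markers other than by this rule were named after their values were seen. Normexp used the median spot signal, because the files hold no mean signal column. The number of arrays limits the precision, and p-values measure the spread between 3 animals a group.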

Additional observations from a re-analysis of the deposited data

How the results depend on the processing

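Of 180 values of the 10 pumps under 18 alternatives, 8 changed sign. By size, 158 moved by less than 1 SD between replicates and 20 by more without a change of direction. A value within 1 SD of 0 was given no direction, which sets aside 6 of the sign changes, 3 each for Abcc2 (to -0.0435 on slide 1, also with slide as a block, and -0.0021 without corn oil replicate 2) and Abcg2 (to -0.1309 on slide 1, also with slide as a block, and -0.0134 without treated replicate 3). The other 2 were Abcb11 (to 0.0606) and Abcb4 (to 0.0424) with spike-in scaling. With the percentile both were further than 1 SD from 0 (SD 0.16 and 0.20), but the spike-in values were within it. The fall of these genes was thus not seen on that scale, and no rise is read from it. Cyp2b1 (0.042), Slc10a1 (0.0441), Slc22a7 (0.0984) and Slco2b1 (0.0311) also changed sign to values just above 0 with spike-in scaling. The cause was not tested. Averaging its probes gave Abcb1b 3.44, against 1.76 for the brightest. The number of features past the threshold, 2715, was 12996 with spike-in scaling, 609 without the filter on dim probes (45862 features tested), 350 with slide as a block, 120 on slide 1 alone, 353 with the replicate number as a block, and 335 to 1232 when 1 animal was left out. Median centring moved the share of higher calls to 74.2% and spike-in scaling to 97.6%, against 63.6% with the percentile. Other ABC genes had 3 calls: 5 with normexp, 15 with spike-in scaling, 0 without the filter, with slide as a block, on slide 1 alone and with the replicate block, and 0 to 2 with 1 animal left out. Regulators and scaffolds had 2: 4 with normexp, 6 with spike-in scaling, 4 with trend and robust options, 0 without the filter, with slide as a block, on slide 1 and with the replicate block, and 0 to 1 with 1 animal left out. Uptake and exchange genes had 4: 2 with median centring, 1 without the filter, 1 with slide as a block, 0 on slide 1 and with the replicate block, and 1 with 1 animal left out. Conjugating enzymes had 11: 19 with spike-in scaling, 2 without the filter, with slide as a block and with the replicate block, 1 on slide 1, and 1 to 7 with 1 animal left out. Sensor targets had 12: 1 without the filter, with slide as a block and on slide 1, 0 with the replicate block, and 2 to 6 with 1 animal left out. Same-numbered animals of the groups had deviations correlated at 0.09, 0.02 and 0.12, and differently numbered animals at -0.0979 to 0.0023. Whether the numbers pair the animals is not settled by these values. Where a list had 0 calls in limma under an alternative, 3 to 16 of its genes had an unadjusted p under 0.05.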

Other observations

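The named genes whose 6 values lay nearest to those of Abcc3, each relative to its corn oil mean, were Trim54, Mmp12, Gpat3, Gucy2c and Prlr, with root-mean-square differences of 0.32, 0.51, 0.56, 0.58 and 0.73 on the log2 scale over 6 arrays. Mmp12, the macrophage elastase, and Prlr, the prolactin receptor, were measured in corn oil livers, Mmp12 in 2 of 3 animals and Prlr in 3 of 3. Trim54, Gpat3 and Gucy2c were not well above background in any corn oil animal, so their nearness rests on dim signals. Likeness over 6 arrays of 2 groups is a description and says nothing of shared control.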
